A study of Homo sapiens with 18 samples.

Results

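The genes described here are 34 genes of the lysosome and of autophagy, chosen by symbol with earlier results of these data known. They are 21 hydrolases of the lysosomal lumen, 5 lysosomal membrane proteins and 8 genes of autophagy. A named probe was found for 33 of them, and 32 gave a signal above background and were tested, of 11680 genes tested in all. Lysosomes are acidic organelles in which hydrolases cut proteins, glycans and lipids into their parts. Autophagy delivers cytoplasm to them: membrane grows around cargo that receptors bind, proteins of the LC3 and GABARAP family sit on that membrane, and the finished vesicle fuses with a lysosome. The transcription factor TFEB is known to raise many genes of both processes together when nutrients are scarce or lysosomes are stressed, by binding a short E-box-like element in their promoters.

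NCI-H2347 is an established human lung cancer cell line. Its cells were switched, 24 h after plating, to RPMI medium with 5% fetal bovine serum that carried either 50 µM pioglitazone, a thiazolidinedione agonist of the nuclear receptor PPARG, or the solvent DMSO (vehicle), and RNA was taken at 12, 24 or 48 h. The 6 groups held 3 samples each, hybridised to 18 Illumina HumanHT-12 v4 BeadChip arrays. All cells were of 1 line, and no label states that replicates came from different cultures. The p-values here therefore describe only how far these samples varied, which may be technical.

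Between 17040 and 18880 of the 47323 probes (36.0% to 39.9%) were above background on an array, and arrays of a group correlated at 0.973 to 0.995. The signal of undetected probes fell into 2 ranges: 137.7 to 153.4 on 7 arrays (every 24 h array, and the third pioglitazone replicate of 48 h) and 101.8 to 113.2 on the other 11. Members that passed at 48 h are therefore given with and without that replicate. All 6 epithelial markers (EPCAM, CDH1, KRT7, KRT8, KRT18, KRT19) were above background on all 18 arrays, as were the lung lineage gene NKX2-1 and the lung protease gene NAPSA, while SFTPB, SFTPC and SCGB1A1 were above it on 0 arrays. Of markers of other cells, PTPRC, PDGFRB, PECAM1 and CDH5 were above background on 0 arrays, LYZ on 2, CD14 on 17, and CD68, CSF1R, COL1A1 and COL1A2 on 18. The summed signal of the 3 leukocyte and macrophage markers that could be tested was 1942 to 1954 in vehicle and 2234 to 2327 in pioglitazone at 24 h. CSF1R rose there by 0.96 on the log2 scale, while CD68 and CD14 differed by 0.05 and -0.13. The summed signal of the 2 fibroblast markers above background was 551 to 584 in vehicle and 311 to 388 in pioglitazone at 12 h, 600 to 651 against 447 to 544 at 24 h, and 504 to 643 against 709 to 736 at 48 h. COL1A1 fell at 12 h (-0.85) and rose at 48 h (0.40), as did NKX2-1 (-0.62 and 0.36). COL1A2 differed by -0.22, -0.56 and -0.30 at 12, 24 and 48 h. NAPSA differed by -0.02, 0.15 and -0.16, and neither gene passed at any time. VWF, above background on 10 arrays, rose at 24 h (0.52). The summed epithelial signal was higher with pioglitazone at each time without overlap (39721 to 40497 against 42891 to 50201 at 48 h). The markers in it did not all move the same way. CDH1 rose by 0.48, 0.55 and 0.71 at 12, 24 and 48 h. KRT7 rose at 12 and 48 h (0.43 and 0.59) and differed by 0.28 at 24 h. KRT19 (0.17, 0.16 and 0.23) and KRT8 (0.03, 0.20 and 0.08) did not pass. EPCAM (-0.21, -0.11 and -0.13) and KRT18 (-0.57, -0.34 and -0.26) were lower at each time and did not pass. The part of these markers in the results was not tested.

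The 33 genes had 57 probes, of which 49 were above background (detection p under 0.01 on at least 3 arrays), and each gene was followed through its brightest probe. CD63, a tetraspanin of late endosomes, had no probe that the annotation used here names, and it was not analysed. The only TFEB probe was above background on 0 arrays. Its log2 signal was 4.47, 4.38 and 4.44 in vehicle and 4.34, 4.35 and 4.47 in pioglitazone at 12 h, 4.40, 4.63 and 4.53 against 4.42, 4.49 and 4.72 at 24 h, and 4.42, 4.62 and 4.45 against 4.37, 4.42 and 4.49 at 48 h, all not well above background, so TFEB was not tested. The arrays give transcript levels only and carry no measure of lysosomal activity or autophagic flux.

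With pioglitazone, NEU1, the lysosomal sialidase, GLA, the alpha-galactosidase A that is deficient in Fabry disease, and WIPI1, a phosphoinositide-binding protein of early autophagosome formation, were higher than in vehicle at all 3 times. Other members moved at some of the times, and the lower calls came mainly at 48 h. At 12 h 4 of the 32 tested members rose and 0 fell in limma (adjusted p under 0.05, adjusted over all 11680 genes), beside 4.32% of all genes higher and 4.48% lower. Without adjustment 6 members were higher and 3 lower at p under 0.05. At 24 h 6 members rose and 2 fell, beside 10.5% and 12.8% of all genes. At 48 h 5 rose and 7 fell, beside 14.3% and 15.4%. As shares, the members' rises were 12.5%, 18.8% and 15.6% of those tested, and their falls 0.0%, 6.2% and 21.9%. The shares at 48 h were near those of all genes. Because the members were chosen with earlier results of these data known, the shares are a description and no test of the list. With the mean of a gene's kept probes in place of the brightest, 6 members rose and 4 fell at 48 h. In all, 15 members passed at 1 or more times and 17 at none. The median log2 difference of the members was 0.07, 0.10 and -0.02 at the 3 times, with -0.004, -0.022 and 0.011 over all genes.

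**Figure D1:**
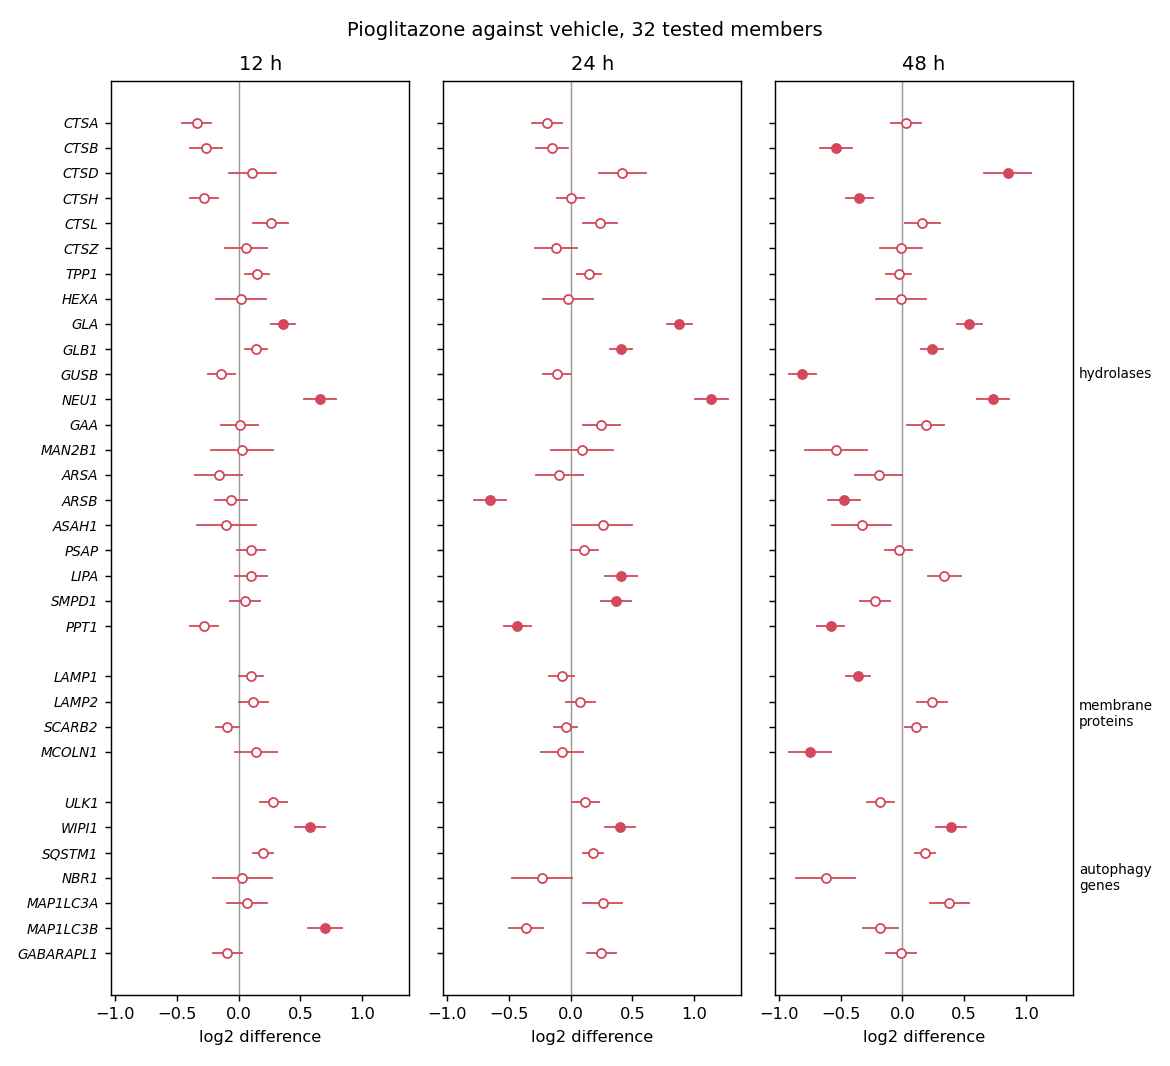
Log2 difference of pioglitazone from vehicle (x axis) for each of the 32 tested members (rows) at 12, 24 and 48 h, with bars of 1 SE and filled points where the adjusted p was under 0.05. NEU1, GLA and WIPI1 are filled and right of 0 at each time, and 7 filled points lie left of 0 at 48 h.

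The 3 classes are described by their counts. Among the 21 hydrolases 2 rose and 0 fell at 12 h, 5 rose and 2 fell at 24 h, and 4 rose and 5 fell at 48 h. At the brightest probe of each gene, none of the 4 tested membrane proteins passed at 12 or 24 h, and 2 fell at 48 h. At an unadjusted p under 0.05 it was also 0 of 4 at 12 and 24 h. These counts depended on the probe used. Some other LAMP2 probes passed upward, by 0.33 and 0.55 at 12 h, 0.42 to 0.47 at 24 h and 0.32 and 0.60 at 48 h. Of the 7 tested autophagy genes 2 rose at 12 h and 1 at each later time, and 0 fell at any (0, 1 and 1 at an unadjusted p under 0.05). The hydrolases' median difference was 0.03, 0.11 and -0.03, that of the membrane proteins 0.11, -0.05 and -0.13, and that of the autophagy genes 0.20, 0.18 and -0.01. These small medians depended on the scaling: with arrays scaled to equal medians in place of quantile normalisation they were 0.15, -0.05 and 0.24 for hydrolases, 0.24, -0.18 and 0.20 for membrane proteins and 0.23, 0.01 and 0.19 for autophagy genes. Under that scaling 0 members passed in limma at any time (3, 3 and 8 at an unadjusted p under 0.05), with a median SE of 0.27 in place of 0.13. All 24 calls, 15 higher and 9 lower, kept their sign, but they had been called on the same arrays, so this is no separate check.

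Promoters are shown for 4 members that moved in opposite directions and hold the E-box-like letters that TFEB is known to bind: NEU1 and CTSD, which rose, and LAMP1 and MCOLN1, which fell at 48 h. Each window is from RefSeq (GRCh38.p14) and runs, on the strand of the gene, from 250 bases before the transcription start to 50 after it, so it covers the upstream flank and the first bases of the gene. Capitals mark CACGTG in the first pair and TCACGTGA in the second pair.
NEU1, chr6:31862772-31863071, minus strand: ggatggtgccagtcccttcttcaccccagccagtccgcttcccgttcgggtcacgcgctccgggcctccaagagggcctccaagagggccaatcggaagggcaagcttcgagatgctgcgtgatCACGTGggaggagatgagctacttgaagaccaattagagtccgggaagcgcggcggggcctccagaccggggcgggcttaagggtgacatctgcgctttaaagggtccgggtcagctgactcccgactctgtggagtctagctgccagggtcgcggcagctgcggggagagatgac
CTSD, chr11:1763878-1764177, minus strand: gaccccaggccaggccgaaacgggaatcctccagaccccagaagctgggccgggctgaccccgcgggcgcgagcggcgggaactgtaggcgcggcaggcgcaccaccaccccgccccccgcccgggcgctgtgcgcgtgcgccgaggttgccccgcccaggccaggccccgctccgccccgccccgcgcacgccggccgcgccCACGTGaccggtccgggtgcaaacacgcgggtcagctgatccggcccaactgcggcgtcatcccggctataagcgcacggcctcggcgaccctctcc
LAMP1, chr13:113296989-113297288, plus strand: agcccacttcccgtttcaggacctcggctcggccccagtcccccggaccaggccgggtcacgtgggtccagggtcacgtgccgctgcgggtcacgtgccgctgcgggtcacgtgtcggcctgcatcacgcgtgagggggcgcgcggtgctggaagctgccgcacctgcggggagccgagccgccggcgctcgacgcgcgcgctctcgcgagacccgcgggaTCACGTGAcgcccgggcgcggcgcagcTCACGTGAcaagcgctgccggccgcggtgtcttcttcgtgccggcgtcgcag
MCOLN1, chr19:7522374-7522673, plus strand: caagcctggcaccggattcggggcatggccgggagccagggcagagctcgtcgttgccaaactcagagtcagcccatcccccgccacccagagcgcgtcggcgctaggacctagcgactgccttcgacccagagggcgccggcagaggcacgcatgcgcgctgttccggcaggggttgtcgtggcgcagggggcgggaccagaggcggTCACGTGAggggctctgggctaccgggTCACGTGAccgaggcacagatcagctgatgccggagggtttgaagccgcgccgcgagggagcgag
CACGTG began 126 bases before the start site in NEU1 and 47 before it in CTSD. TCACGTGA occurred 2 times in LAMP1, beginning 29 and 2 bases before the start, and 2 times in MCOLN1, at 42 and 15 bases. The LAMP1 window held 6 CACGTG in all, of which the 4 outside TCACGTGA are not in capitals. Both motifs read the same on either strand, and every TCACGTGA contains a CACGTG. Of the 27 members with a RefSeq promoter entry, 4 held TCACGTGA (CTSA, GAA, LAMP1 and MCOLN1), as did 344 of 35116 promoters in the table (0.98%). CACGTG was in 8 members (CTSA, CTSD, NEU1, GAA, ARSB, LAMP1, CD63 and MCOLN1) and in 2548 promoters (7.26%). CD63 is counted here although its expression was not analysed. Of the other holders not shown, ARSB was lower at 24 and 48 h, and CTSA and GAA passed at no time. GLA and WIPI1, which rose at each time, held neither motif. Members were counted by gene and the other promoters by entry, so the counts are in unlike units, and the difference was not tested. A match is a string of letters in this window and no measurement of binding.

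Of the 7 glycosidases, which remove sugars from glycoproteins and glycolipids, 2 rose at 12 h, 3 at 24 h and 3 at 48 h, where 1 fell. The rises were 28.6%, 42.9% and 42.9% of this small group, beside 4.32%, 10.5% and 14.3% of all genes, and the difference was not tested. The 12 h call of GLA and the 48 h call of GLB1 rested on single arrays, as given below. The log2 signal of NEU1 was 9.55, 9.35 and 9.28 in vehicle and 9.93, 10.08 and 10.12 in pioglitazone at 12 h. At 24 h it was 9.47, 9.60 and 9.22 against 10.38, 10.71 and 10.63. At 48 h it was 9.07, 9.37 and 8.94 against 9.81, 9.77 and 9.99. Every pioglitazone array was above every vehicle array of its time. On the log2 scale NEU1 was higher by 0.66 ± 0.13 (SE, n = 3 per group, as for all differences here; adjusted p = 0.00482 in limma) at 12 h, by 1.14 ± 0.13 (adjusted p = 1.45e-05, 2.21-fold) at 24 h and by 0.73 ± 0.13 (adjusted p = 0.000573) at 48 h. It was 0.66 (adjusted p = 0.00278) at 48 h without pioglitazone replicate 3.

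GLA, which cuts terminal galactose from globo-series glycolipids, gave 9.50, 9.43 and 9.51 in vehicle and 9.80, 10.01 and 9.70 in pioglitazone at 12 h. At 24 h its log2 signal was 9.02, 8.76 and 8.77 against 9.70, 9.70 and 9.79, and at 48 h 8.46, 8.54 and 8.59 against 9.10, 9.15 and 8.96. The groups did not overlap at any time, and both had their lowest values at 48 h. The difference was 0.36 ± 0.10 (adjusted p = 0.0398) at 12 h, 0.88 ± 0.10 (adjusted p = 1.49e-05) at 24 h and 0.54 ± 0.10 (adjusted p = 0.000881) at 48 h, where it was 0.59 (adjusted p = 0.000638) without pioglitazone replicate 3. The 12 h call was lost when any 1 of the 3 vehicle arrays or pioglitazone replicate 1 or 2 was left out (0.27 to 0.38, adjusted p 0.088 to 0.182).

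GLB1, the beta-galactosidase of gangliosides and keratan sulfate, had a log2 signal of 11.35, 11.27 and 11.20 in vehicle and 11.59, 11.73 and 11.74 in pioglitazone at 24 h, a rise of 0.41 ± 0.09 (adjusted p = 0.00256). At 48 h it gave 11.28, 11.38 and 11.27 against 11.55, 11.59 and 11.52, a rise of 0.24 ± 0.09 (adjusted p = 0.0444). At 12 h the values were 11.26, 11.21 and 11.27 against 11.48, 11.34 and 11.34, a difference of 0.14 ± 0.09 that did not pass. Pioglitazone arrays were the higher ones throughout. The 48 h call was lost without any 1 array other than pioglitazone replicate 3 (0.22 to 0.28, adjusted p 0.0566 to 0.121), and without replicate 3 it was 0.26 (adjusted p = 0.039).

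GUSB, the beta-glucuronidase of glycosaminoglycan breakdown, was lower at 48 h. Its log2 signal was 9.50, 9.45 and 9.57 in vehicle and 8.84, 8.57 and 8.70 in pioglitazone at 48 h, so the groups lay far apart. GUSB fell by 0.81 ± 0.11 (adjusted p = 3.69e-05), and by the same 0.81 without pioglitazone replicate 3 (adjusted p = 0.000129). At 12 h the values were 9.37, 9.41 and 9.58 against 9.15, 9.39 and 9.40, and at 24 h 9.16, 8.80 and 8.95 against 8.84, 8.85 and 8.88, and the groups overlapped both times. HEXA, GAA and MAN2B1, which act on GM2 ganglioside, glycogen and mannose-rich glycans, passed at no time. Their differences at 12, 24 and 48 h were 0.02, -0.02 and -0.01 for HEXA, 0.01, 0.25 and 0.19 for GAA, and 0.03, 0.09 and -0.54 for MAN2B1. Without vehicle replicate 3 at 48 h, MAN2B1 passed (-0.91, adjusted p = 0.00379).

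Of the 7 proteases, 0 passed at 12 or 24 h, where 2 were lower and 1 was higher at an unadjusted p under 0.05, and at 48 h 1 rose and 2 fell. CTSD, the aspartic protease cathepsin D, gave log2 signals of 9.30, 9.21 and 8.97 in vehicle and 9.75, 9.76 and 10.52 in pioglitazone at 48 h, without overlap. Pioglitazone replicate 3 was the highest by a wide margin. The rise was 0.85 ± 0.19 (adjusted p = 0.0027, 1.81-fold), and 0.60 (adjusted p = 0.0117) without replicate 3. At 12 h CTSD gave 9.17, 9.48 and 9.21 against 9.22, 9.25 and 9.71 (difference 0.11 ± 0.19), and at 24 h 9.75, 9.80 and 10.21 against 10.26, 10.39 and 10.37 (0.42 ± 0.19, adjusted p = 0.122).

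The 2 cathepsins lower at 48 h were cysteine proteases. CTSB, cathepsin B, gave 11.49, 11.31 and 11.43 in vehicle and 10.89, 11.12 and 10.59 in pioglitazone, a fall of 0.54 ± 0.13 (adjusted p = 0.0041), and 0.41 lower without replicate 3 (difference -0.41, adjusted p = 0.0179). Its values at 12 h were 10.98, 11.34 and 11.01 against 10.75, 10.81 and 10.99, and at 24 h 10.69, 10.81 and 10.68 against 10.52, 10.61 and 10.60. Those earlier differences, -0.26 and -0.15, did not pass. CTSH, cathepsin H, an aminopeptidase, gave 10.78, 10.77 and 10.70 against 10.49, 10.43 and 10.27 at 48 h, a difference of -0.35 ± 0.11 (adjusted p = 0.0246). Without pioglitazone replicate 3 the CTSH call was lost (-0.29, adjusted p = 0.0744), as it was without vehicle replicate 1 or 2 (-0.34 to -0.29, adjusted p 0.0658 to 0.0744 over the 3 omissions). At 12 h CTSH gave 10.76, 10.89 and 10.89 against 10.43, 10.53 and 10.73 (-0.28) and at 24 h 10.70, 10.84 and 10.74 against 10.59, 10.98 and 10.71, overlapping.

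Of the other proteases, CTSA, the protective protein that holds NEU1 and GLB1 in 1 complex, differed by -0.34, -0.19 and 0.03 at 12, 24 and 48 h. CTSL, cathepsin L, differed by 0.26, 0.24 and 0.16, and passed at 48 h only without pioglitazone replicate 3 (0.34, adjusted p = 0.0325). The carboxypeptidase CTSZ differed by 0.06, -0.12 and -0.01. TPP1, the tripeptidyl peptidase, differed by 0.15, 0.15 and -0.03. None of these passed with all arrays at its brightest probe.

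Among the sulfatases, ARSB, which removes sulfate from dermatan sulfate, was lower at the 2 later times. Its log2 signal was 6.39, 6.52 and 6.53 in vehicle and 6.09, 5.91 and 5.48 in pioglitazone at 24 h, a fall of 0.65 ± 0.13 (adjusted p = 0.00213). At 48 h it was 6.69, 6.81 and 6.60 against 6.23, 6.31 and 6.15, a difference of -0.47 ± 0.13 (adjusted p = 0.0131). Neither pair of groups overlapped, whereas at 12 h (6.66, 6.57 and 6.39 against 6.53, 6.58 and 6.34) they did. The 48 h call was lost without vehicle replicate 2 (-0.42, adjusted p = 0.0574) and held without pioglitazone replicate 3 (-0.43, adjusted p = 0.0376). ARSA, which acts on sulfatide, differed by -0.16, -0.09 and -0.19 and passed at no time, with 0.10 at 48 h without pioglitazone replicate 3.

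Among the 5 enzymes and cofactors of lipid breakdown, PPT1 fell and LIPA and SMPD1 rose. PPT1, which strips palmitate from proteins, gave 11.47, 11.25 and 11.34 in vehicle and 11.18, 11.13 and 10.92 in pioglitazone at 12 h, 11.71, 11.52 and 11.51 against 11.07, 11.22 and 11.14 at 24 h, and 11.41, 11.46 and 11.41 against 10.91, 10.66 and 10.97 at 48 h. The pioglitazone arrays were the lower ones at every time. PPT1 differed by -0.28 ± 0.11 (adjusted p = 0.126) at 12 h, -0.43 ± 0.11 (adjusted p = 0.00816) at 24 h and -0.58 ± 0.11 (adjusted p = 0.000634) at 48 h, or -0.64 (adjusted p = 0.000442) at 48 h without replicate 3.

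LIPA, the acid lipase of cholesteryl esters and triglycerides, gave 9.86, 9.78 and 9.99 against 10.22, 10.30 and 10.35 at 24 h, a rise of 0.41 ± 0.13 (adjusted p = 0.0295). SMPD1, the acid sphingomyelinase, gave 7.93, 7.90 and 8.21 against 8.34, 8.40 and 8.42 at 24 h, a rise of 0.37 ± 0.12 (adjusted p = 0.0293). Neither gene's groups overlapped at 24 h. Both calls were lost without vehicle replicate 1 or 2 or pioglitazone replicate 2 or 3 (LIPA 0.36 to 0.40, adjusted p 0.0745 to 0.102; SMPD1 0.32 to 0.37, adjusted p 0.0751 to 0.109). At 12 h LIPA gave 9.37, 9.03 and 9.30 against 9.28, 9.32 and 9.38, and at 48 h 9.25, 9.41 and 9.06 against 9.59, 9.32 and 9.82 (0.34 ± 0.13, adjusted p = 0.0566). Without vehicle replicate 2 or pioglitazone replicate 2 the LIPA difference at 48 h passed (0.42 and 0.47), and without pioglitazone replicate 3 it was 0.22 (adjusted p = 0.216). SMPD1 gave 7.88, 7.84 and 7.83 against 7.68, 7.94 and 8.07 at 12 h and 8.23, 7.90 and 8.00 against 7.91, 7.80 and 7.76 at 48 h, with overlap both times. ASAH1, the acid ceramidase, and PSAP, the precursor of the saposin cofactors, passed at no time, with differences of -0.10, 0.26 and -0.33 for ASAH1 and 0.10, 0.11 and -0.03 for PSAP. The ASAH1 difference at 48 h was 0.10 without pioglitazone replicate 3.

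At their brightest probes, 2 of the 4 tested membrane proteins passed, both lower at 48 h, while other probes of LAMP2 rose, as given with the probes. LAMP1, a heavily glycosylated protein that lines the lysosomal membrane, gave 12.05, 12.13 and 12.05 in vehicle and 12.22, 12.08 and 12.22 in pioglitazone at 12 h, 11.86, 11.80 and 11.94 against 11.85, 11.80 and 11.73 at 24 h, and 12.06, 12.08 and 12.07 against 11.92, 11.56 and 11.64 at 48 h. The groups overlapped at 12 and 24 h and not at 48 h. LAMP1 was lower by 0.36 on the log2 scale at 48 h (-0.36 ± 0.10, adjusted p = 0.0104), and by 0.33 without pioglitazone replicate 3 (-0.33, adjusted p = 0.0253).

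MCOLN1, the calcium channel of lysosomes and a known TFEB target, gave 7.19, 7.09 and 7.0 in vehicle and 6.44, 5.99 and 6.60 in pioglitazone at 48 h. The fall was 0.75 ± 0.17 (adjusted p = 0.00259, 1.68-fold), with -0.88 (adjusted p = 0.00134) without replicate 3. The earlier groups overlapped, with 7.06, 6.88 and 7.48 against 7.17, 7.29 and 7.40 at 12 h and 6.82, 7.28 and 6.92 against 6.92, 7.04 and 6.86 at 24 h. LAMP2 serves chaperone-mediated autophagy through 1 of its isoforms, and its brightest probe was not assigned to that isoform. At this probe LAMP2 differed by 0.12, 0.08 and 0.24. SCARB2, the receptor that carries glucocerebrosidase to lysosomes, differed by -0.09, -0.04 and 0.11. Neither passed with all arrays at its brightest probe. That of LAMP2 passed at 48 h without pioglitazone replicate 2 (0.34, adjusted p = 0.0463) and was 0.11 (adjusted p = 0.473) without replicate 3.

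Of the autophagy genes, WIPI1 rose at all 3 times and MAP1LC3B at 12 h. WIPI1 gave 7.87, 7.75 and 7.54 in vehicle and 8.00, 8.47 and 8.44 in pioglitazone at 12 h, 8.28, 8.26 and 8.26 against 8.59, 8.75 and 8.65 at 24 h, and 8.00, 8.16 and 8.05 against 8.36, 8.49 and 8.51 at 48 h. Every pioglitazone array exceeded every vehicle array of its time. The rise was 0.58 ± 0.12 (adjusted p = 0.00579), 0.40 ± 0.12 (adjusted p = 0.026) and 0.39 ± 0.12 (adjusted p = 0.0228). The 24 h call was lost without any 1 array other than pioglitazone replicate 1 (0.35 to 0.40, adjusted p 0.063 to 0.0947). The 48 h call was lost without vehicle replicate 1 or 3 or pioglitazone replicate 2 or 3 (0.35 to 0.38, adjusted p 0.0517 to 0.0776, and 0.36 with adjusted p = 0.0524 without pioglitazone replicate 3).

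MAP1LC3B, whose lipid-linked protein marks autophagosomes, gave 9.90, 9.55 and 9.99 in vehicle and 10.50, 10.50 and 10.53 in pioglitazone at 12 h, a rise of 0.70 ± 0.14 (adjusted p = 0.00407). At 24 h the order was turned, with 10.47, 10.89 and 10.66 in vehicle and 10.45, 10.13 and 10.36 in pioglitazone, although the difference of -0.36 ± 0.14 did not pass (adjusted p = 0.0745). At 48 h the values were 9.97, 10.28 and 10.01 against 9.86, 9.80 and 10.08, with overlap. The vehicle arrays of 24 h were the highest of the 9 vehicle arrays.

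SQSTM1, the cargo receptor p62, was higher on every pioglitazone array than on every vehicle array of its time, yet passed at none. It gave 14.38, 14.48 and 14.44 against 14.66, 14.56 and 14.68 at 12 h, 14.46, 14.41 and 14.51 against 14.71, 14.60 and 14.60 at 24 h, and 14.33, 14.38 and 14.41 against 14.57, 14.59 and 14.50 at 48 h. The differences were 0.20 ± 0.08, 0.18 ± 0.08 and 0.18 ± 0.08, with adjusted p of 0.164, 0.137 and 0.122. The other cargo receptor, NBR1, differed by 0.03, -0.23 and -0.62, and it was above background on 1 of 3 arrays in each 24 h group and on 2 of 3 pioglitazone arrays at 48 h. NBR1 passed at 48 h without pioglitazone replicate 1 (-0.78) or replicate 2 (-0.82), and was -0.27 without replicate 3. ULK1, the kinase that starts autophagy, differed by 0.28, 0.12 and -0.18, MAP1LC3A by 0.07, 0.26 and 0.38 (0.55, adjusted p = 0.0188, at 48 h without vehicle replicate 3) and GABARAPL1 by -0.09, 0.25 and -0.01.

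**Figure D2:**
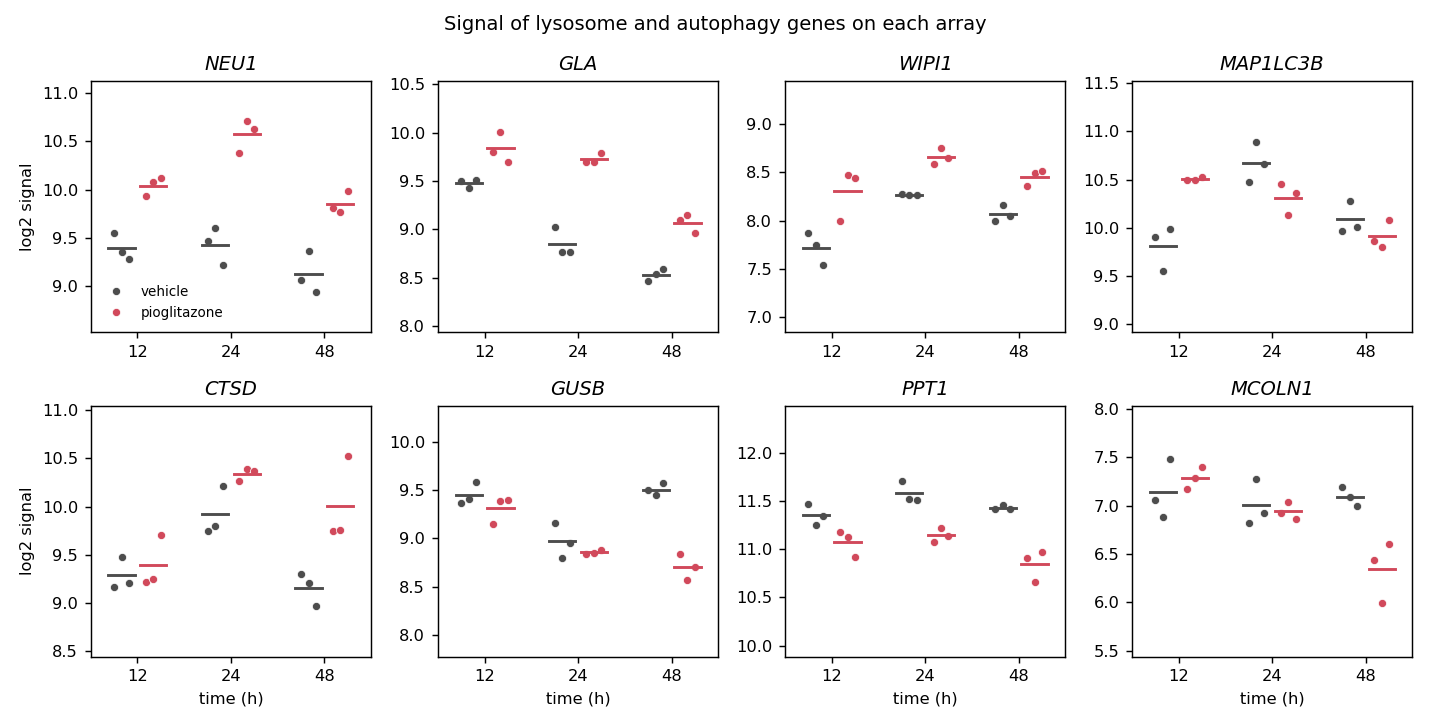
Log2 signal (y axis) of 8 members on each of the 18 arrays by time in h (x axis), grey for vehicle and red for pioglitazone, with a line at the mean of each group of 3. NEU1, GLA and WIPI1 are separated upward at each time, MAP1LC3B at 12 h, and GUSB, PPT1 and MCOLN1 are separated downward at 48 h.

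The counts at single times depended on single arrays. At 24 h they were 3 up and 2 down, 5 in all, without vehicle replicate 1, vehicle replicate 2, pioglitazone replicate 2 or pioglitazone replicate 3, in place of 8. At 48 h, where vehicle and replicates 1 and 2 of pioglitazone had the lower background, 5 members rose and 6 fell without pioglitazone replicate 3, which lost the calls of CTSH and WIPI1 and gained that of CTSL.

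Of the 33 genes with a probe, 14 had more than 1, and 12 had more than 1 above background. In a fit over all 20032 probes, added after the data had been seen, 5 of the 49 member probes rose at 12 h and 0 fell, with 3.01% of all probes higher and 2.81% lower. At 24 h 12 rose and 3 fell (8.75% and 9.71% of all probes), and at 48 h 7 rose and 7 fell (11.8% and 11.8%). The rising probes belonged to 4, 8 and 6 genes and the falling probes to 0, 3 and 7. The 4 genes at 12 h were NEU1, WIPI1, MAP1LC3B and LAMP2. In this limma fit GLA did not pass at 12 h (0.36, adjusted p = 0.0602).

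LAMP2 had 6 probes above background, which differed by 0.09 to 0.55 at 12 h, 0.02 to 0.47 at 24 h and 0.14 to 0.60 at 48 h, all above 0. Its brightest probe passed at no time, whereas 2 others passed at 12 h (0.55, adjusted p = 0.0101, and 0.33, adjusted p = 0.0381). Both of these are annotated to another LAMP2 transcript than the brightest probe. At 24 h 3 others passed (0.47, 0.47 and 0.42, adjusted p = 0.0017, 0.0167 and 0.0203), and at 48 h 2 did (0.60, adjusted p = 0.00952, and 0.32, adjusted p = 0.0173). The probe at 0.60 was the dimmest of the 6 (mean log2 signal 5.81) and was above background on 15 arrays. These 48 h values include pioglitazone replicate 3. CTSL had 3 probes above background, and 1 other than the brightest rose at 24 h (0.46, adjusted p = 0.0266). CTSB disagreed between its 2 probes: the second gave -0.16, -0.44 (adjusted p = 0.0312) and 0.09 where the brightest gave -0.26, -0.15 and -0.54, so that the 48 h fall rested on 1 probe. The ARSB and CTSH falls also rested on the brightest probe. The other ARSB probe above background, on 11 arrays, gave -0.15, -0.40 and -0.12. The second CTSH probe gave -0.09, -0.03 and -0.16, and neither of these probes passed at any time. The second ARSA probe gave 0.40, -0.20 and -0.10 against -0.16, -0.09 and -0.19. SMPD1 rose on both of its probes at 24 h, by 0.37 and 0.39 (adjusted p = 0.0404 and 0.0278), while at 48 h they gave -0.22 and 0.03, and at 12 h 0.05 and -0.03. Both GLB1 probes above background were higher at each time, and at 48 h the second passed (0.42, adjusted p = 0.00547) where the brightest did not over all probes (0.24, adjusted p = 0.0645). The second PSAP probe gave 0.02 at 48 h against -0.03, a difference in sign with no call on either.

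**Figure D3:**
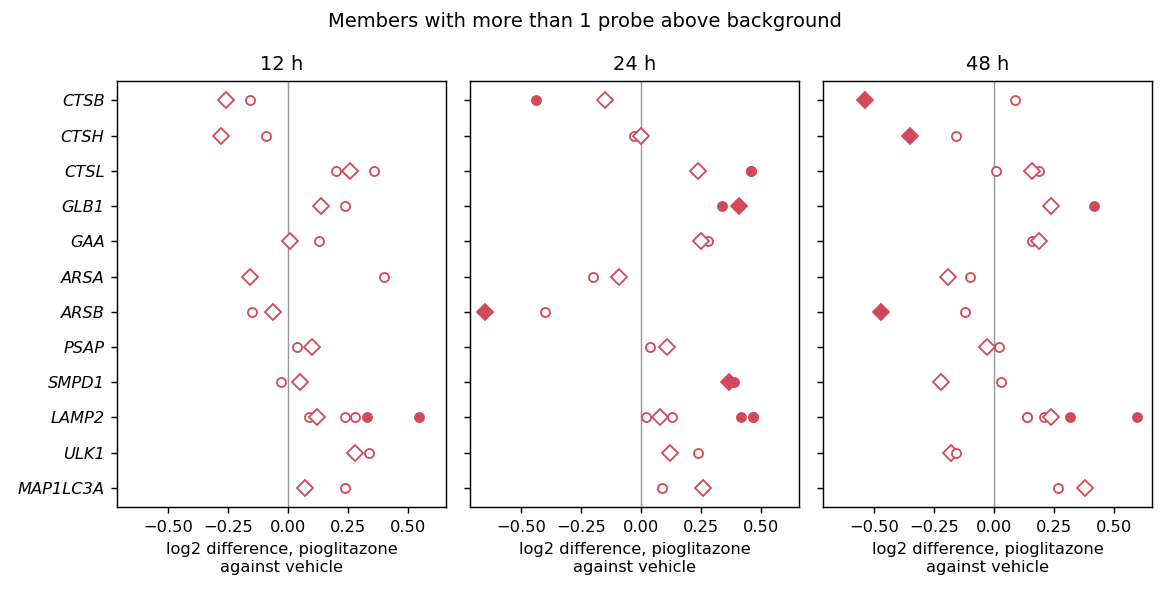
Log2 difference of pioglitazone from vehicle (x axis) at 12, 24 and 48 h for every probe above background of the 12 members with more than 1; diamonds are the probe used for the gene, circles the others, and filled symbols passed at an adjusted p under 0.05 over all probes. The probes of LAMP2 all lie right of 0, and those of CTSB lie on both sides at 48 h.

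Whether the effect of pioglitazone changed over time was tested as the difference between the effects at 2 times, which share their arrays with the comparisons above and with each other. The 24 h effect minus the 12 h effect passed in 0 members upward and 1 downward, beside 0.351% and 0.342% of all genes (3 upward and 2 downward at an unadjusted p under 0.05). From 24 to 48 h 0 passed upward and 1 downward, beside 1.25% and 2.16% (0 and 7 unadjusted). From 12 to 48 h 0 passed upward and 4 downward, beside 3.88% and 5.22% (2 and 6 unadjusted). MAP1LC3B had a later effect below its 12 h effect, by -1.06 ± 0.20 (adjusted p = 0.0193) at 24 h and -0.88 ± 0.20 (adjusted p = 0.00906) at 48 h. The effect on GUSB at 48 h was below that at 24 h (-0.69 ± 0.16, adjusted p = 0.0214) and that at 12 h (-0.66 ± 0.16, adjusted p = 0.0131). Between 24 and 48 h the GUSB mean went from 8.97 to 9.51 in vehicle and from 8.86 to 8.70 in pioglitazone. From 12 to 48 h the effect also fell for MCOLN1 (-0.89 ± 0.24, adjusted p = 0.0242) and LAMP1 (-0.46 ± 0.14, adjusted p = 0.049). The difference between times passed for none of NEU1, GLA and WIPI1 (unadjusted p under 0.05 for NEU1 and GLA from 12 to 24 h, 0.49 and 0.52, and from 24 to 48 h, -0.42 and -0.34).

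Single arrays mattered here. The 24 h minus 12 h result of MAP1LC3B was lost without vehicle replicate 2 or pioglitazone replicate 2 of 12 h, vehicle replicate 2 of 24 h, or pioglitazone replicate 2 or 3 of 24 h (-1.08 to -0.92, adjusted p 0.0502 to 0.0685). That of GUSB from 24 to 48 h was lost without vehicle replicate 1 or 3 of 48 h, vehicle replicate 2 or 3 of 24 h, or pioglitazone replicate 3 of 24 h (-0.70 to -0.61, adjusted p 0.0501 to 0.0656). That of MCOLN1 was lost without vehicle replicate 1 or 2 or pioglitazone replicate 3 of 12 h or vehicle replicate 1 of 48 h (-0.85 to -0.76, adjusted p 0.0566 to 0.0677). That of LAMP1 was lost without any of the 12 arrays compared other than pioglitazone replicate 1 of 48 h (-0.50 to -0.38, adjusted p 0.0512 to 0.111). GUSB and MAP1LC3B from 12 to 48 h passed without each of the 12 arrays in turn.

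The vehicle cultures themselves moved with time. At 24 h against 12 h 7 members were higher and 6 lower, beside 20.1% and 16.5% of all genes. Time and background range cannot be told apart here, since all 24 h arrays had the higher background and all 12 h arrays the lower. With arrays scaled to equal medians, which moved the median of all genes from 0.06 to 0.54, the split was 13 higher and 1 lower, and CTSB and GUSB changed sign (0.14 and 0.11). Among the rises MAP1LC3A was at 0.94 ± 0.16, MAP1LC3B at 0.86 ± 0.14, LIPA at 0.64 ± 0.13 and CTSD at 0.63 ± 0.19. CTSD lost its call without vehicle replicate 1 or 3 of 12 h or 3 of 24 h (0.49 to 0.60). Among the falls NBR1 was at -1.84 ± 0.24, ARSA at -1.05 ± 0.19, ULK1 at -0.75 ± 0.11 and GLA at -0.63 ± 0.10. NBR1 was above background on 1 of the 3 vehicle arrays of 24 h, and the second ARSA probe went the other way (1.20, adjusted p = 0.00036), as did the second CTSB probe (0.71, adjusted p = 0.00117, against -0.39). LAMP2 (0.35) lost its call without any 1 of the 6 arrays, and CTSB (-0.37 to -0.27) without vehicle replicate 2 of 12 h or 1 or 3 of 24 h.

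At 48 h against 12 h, where all 6 vehicle arrays had the lower background, 5 members were higher and 3 lower, beside 12.0% and 13.6% of all genes. MAP1LC3A gave 6.97, 7.28 and 7.33 at 12 h and 8.76, 8.68 and 9.23 at 48 h, a rise of 1.69 ± 0.16 (adjusted p = 1.54e-06, 3.23-fold), and its second probe rose by 1.55 (adjusted p = 0.000133). CTSL rose by 0.53 ± 0.14, TPP1 by 0.46 ± 0.10 and WIPI1 by 0.35 ± 0.12. GLA was lower by 0.95 on the log2 scale (-0.95 ± 0.10, adjusted p = 7.79e-06), NBR1 by 1.06 (-1.06 ± 0.24) and ULK1 by 0.38 (-0.38 ± 0.11). The fifth rise, SCARB2 (0.26), lost its call without any 1 of the 6 arrays, WIPI1 without any 1 other than vehicle replicate 1 of 12 h (0.26 to 0.38), and ULK1 without vehicle replicate 1 or 2 of 12 h (-0.36). Other probes differed in the limma fit over all probes. The second ARSA probe rose (1.16, adjusted p = 0.000498) where the brightest gave 0.32. The brightest LAMP2 probe gave -0.06, and the others 0.61 (adjusted p = 0.00162), 0.62 (adjusted p = 0.00936), 0.24, 0.03 and -0.18. The other CTSL probes gave 0.68 (adjusted p = 0.00211) and 0.11. The second ULK1 probe did not pass (-0.32, adjusted p = 0.0642). The vehicle arrays of 12 and 48 h are also those of the pioglitazone comparisons at these times.

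**Figure D4:**
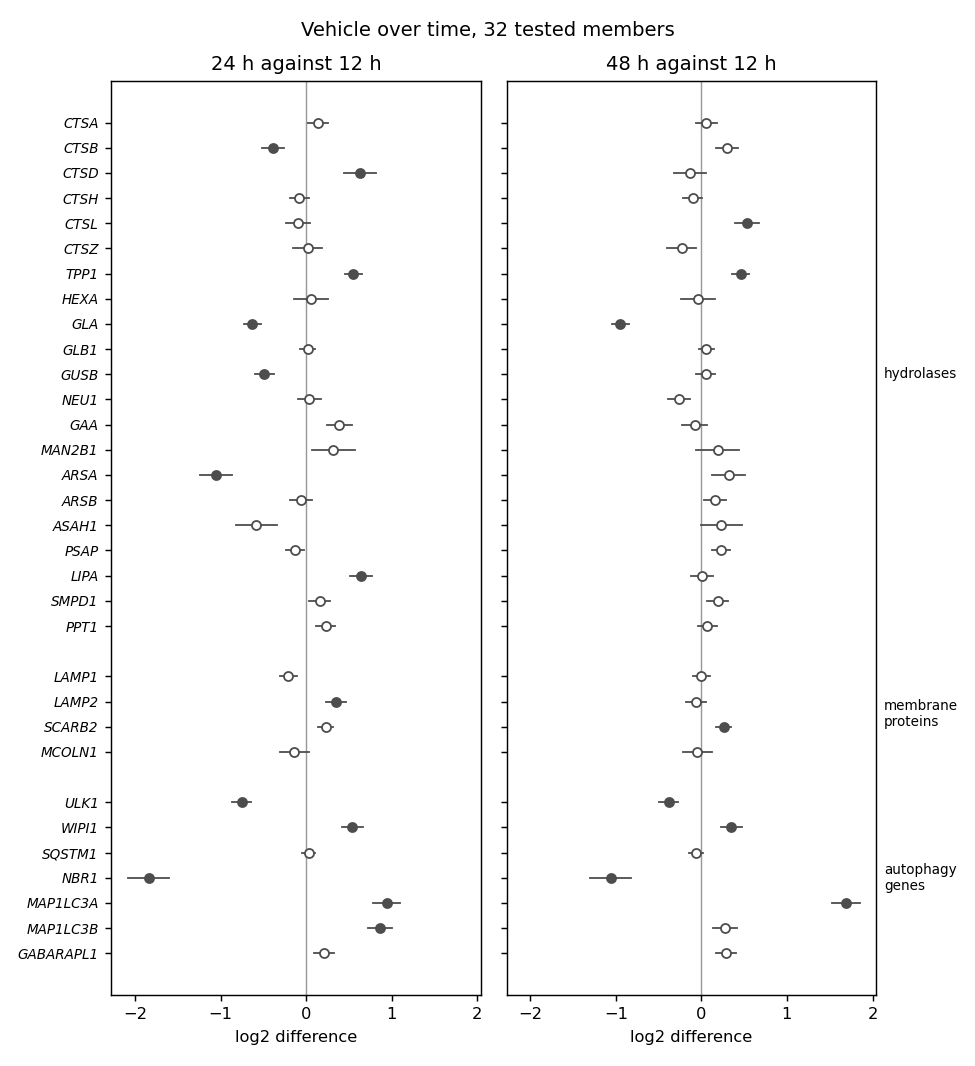
Log2 difference (x axis) of vehicle at 24 h and at 48 h from vehicle at 12 h for each of the 32 tested members (rows), with bars of 1 SE and filled points where the adjusted p was under 0.05. MAP1LC3A lies right of 0 and GLA, ULK1 and NBR1 left of 0 in both panels.

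Genes of the same pathway outside the 34 were read from 5 lists, each against the shares of all genes given above. These lists, too, were chosen with earlier results of these data known, so their counts are no test of the lists. Of 26 other hydrolases tested 3 rose at 12 h, 6 at 24 h and 6 at 48 h, while 0, 0 and 1 fell (1, 0 and 4 at an unadjusted p under 0.05). MANBA, the lysosomal beta-mannosidase, rose at each time (0.51, 0.67 and 0.73 ± 0.11). At 12 h the asparaginyl protease LGMN (0.46) and CTSV (0.36) rose, at 24 h SCPEP1 (0.61) and NAAA (0.44), and at 48 h IDUA (1.15 ± 0.26) and PLBD2 (0.79 ± 0.16). CTSV, which had risen at 12 h, fell at 48 h (-0.43 ± 0.09). IDUA was 0.72 without pioglitazone replicate 3, and the list then held 8 rises and 3 falls at 48 h.

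Of 16 tested subunit genes of the proton pump that acidifies lysosomes 0 rose at 12 h (1 at an unadjusted p under 0.05), 2 at 24 h and 3 at 48 h, while 1, 1 and 2 fell. ATP6V0A1 was the lower 1 at each time (-0.39, -0.32 and -0.60 ± 0.11), joined at 48 h by ATP6V0E2 (-0.84 ± 0.15, and -0.61 without pioglitazone replicate 3). ATP6V0D1 (0.43) and ATP6V1G1 (0.31) rose at 24 h, and ATP6V1C1 (0.57), ATP6V1G1 (0.43) and ATP6V1D (0.31) at 48 h, where without pioglitazone replicate 3 the calls of ATP6V1C1 (0.33, adjusted p = 0.0806) and ATP6V1D (0.21, adjusted p = 0.153) were lost and 1 rise and 2 falls were left.

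Of 23 other lysosomal membrane and sorting genes tested 3 rose at 12 h, 3 at 24 h and 4 at 48 h, while 0, 2 and 6 fell (3, 4 and 9 at an unadjusted p under 0.05). NPC1, which exports cholesterol from lysosomes, rose at each time (0.89, 0.59 and 0.79 ± 0.14; 0.58 at 48 h without pioglitazone replicate 3). SIDT2 (0.55) and ABCB9 (0.44) rose at 12 h, ABCB9 (0.52) and GNPTAB (0.40), which makes the mannose 6-phosphate tag, at 24 h, and GNPTAB (0.42) and AP1M2 (0.52) at 48 h. The falls were led by LAMP3 (-0.80 ± 0.17 at 24 h and -1.79 ± 0.17 at 48 h, adjusted p = 3.9e-07), followed by the amino acid transporter SLC36A1 (-0.67 at both times) and at 48 h the cystine exporter CTNS (-0.65 ± 0.12). Without pioglitazone replicate 3, LAMP3 was at -1.95, CTNS at -0.50 and the call of AP1M2 was lost (0.36, adjusted p = 0.0656).

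The list of 39 other autophagy genes tested had 4 rises at 12 h, 8 at 24 h and 11 at 48 h, or 10.3%, 20.5% and 28.2% of it, with 0, 1 and 1 falls (2, 4 and 1 at an unadjusted p under 0.05). TP53INP1 rose at each time (1.13, 1.01 and 1.38 ± 0.20; 1.10 at 48 h without pioglitazone replicate 3), as did BNIP3, a mitophagy receptor (0.52, 0.84 and 1.43 ± 0.10). At 48 h the related receptor BNIP3L had the highest value of the list (1.61 ± 0.16, adjusted p = 8.76e-07, 3.06-fold; 1.44 without pioglitazone replicate 3). ATG2A (0.42) rose at 12 h and TP53INP2 (0.93) at 24 h, and ATG3, an LC3-conjugating enzyme, fell at 24 and 48 h (-0.39 and -0.35). Of 21 regulators tested, genes of mTORC1, its lysosomal anchor and the transcription factors around TFEB, 3 rose at 12 h, 4 at 24 h and 4 at 48 h, while 0, 1 and 0 fell (0, 1 and 0 also unadjusted). FOXO3 rose at each time (0.50, 0.85 and 0.50 ± 0.14), FNIP1 at 12 and 48 h (0.47 and 0.49), TSC1 at 12 h (0.44), LAMTOR5 (0.52) and RRAGC (0.40) at 24 h, and RPTOR at 48 h (0.55). RPTOR did not pass without pioglitazone replicate 3 (0.48, adjusted p = 0.1). MITF, a relative of TFEB, was the regulator that fell, at 24 h (-0.54 ± 0.14).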

How the data were processed

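The deposited intensity table holds probe signals of 18 arrays with no normalisation, per the file headers and values; GenomeStudio is named in the submitters' processing notes, and its version is not given in the sources used here. The deposited detection p-value of each probe stands beside its signal. The authors' processed intensity table (quantile normalised as its values show, median 10.4) served as an alternative. Signals were background-corrected with neqc (negative controls inferred from detection p, offset 16), quantile normalised and put on the log2 scale. Of 47323 probes 30113 had 1 gene symbol, 8 several and 17202 none. The 20032 probes with detection p under 0.01 on at least 3 arrays were kept, and the brightest per gene gave 11680 genes. Group means of the 6 groups were fitted with limma 3.58.1 (R 4.3.3, lmFit and eBayes, 12 residual degrees of freedom), with Benjamini-Hochberg adjustment over all genes and a threshold of 0.05. The fit was tested on simulated data. The number of arrays limits the precision. No 2 arrays were identical (0 pairs).

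The members and gene lists were chosen with earlier results of these data known. Members that passed in a pioglitazone comparison, and TFEB, SQSTM1, MAP1LC3B, LAMP1 and CTSD, were given by array. Up to 4 members per direction were named in the comparisons over time, and up to 3 genes per direction and time from each other list, by size of difference; further members are named where a call rested on single arrays. Samples were not treated as paired by replicate number in the main fit. Deviations of same-numbered arrays correlated at -0.257 to 0.091, which cannot show how the cultures were handled. Promoter windows and coordinates are from RefSeq on GRCh38.p14.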

Additional observations from a re-analysis of the deposited data

Results flagged for a closer look

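In 6 cases the effect of pioglitazone on a member differed between 2 times by the test of that difference (limma, adjusted p under 0.05 over all genes). MAP1LC3B stood out by a rise at 12 h that was not there later: its effect at 24 h minus that at 12 h was -1.06 (adjusted p = 0.0193), and at 48 h minus 12 h it was -0.88 (adjusted p = 0.00906). GUSB had a lower effect at 48 h than at 24 h (-0.69, adjusted p = 0.0214) and than at 12 h (-0.66, adjusted p = 0.0131). From 12 to 48 h the effect was also lower for MCOLN1 (-0.89, adjusted p = 0.0242) and LAMP1 (-0.46, adjusted p = 0.049). Leaving out single arrays ended the call for 4 of the 6, with values of -1.08 to -0.92 for MAP1LC3B at 24 h, -0.70 to -0.61 for GUSB from 24 to 48 h, -0.85 to -0.76 for MCOLN1 and -0.50 to -0.38 for LAMP1; the arrays are named in the results. With arrays scaled to equal medians 0 of the 6 passed.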

How the results depend on the processing

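The number of members that passed depended on the scaling and on array weights. With arrays scaled to equal medians it was 0 at 12, 24 and 48 h and 0 for each difference between times (limma; 3, 3 and 8 members, and 2, 0 and 0 for the differences, at an unadjusted p under 0.05), and 3 for vehicle at 48 h against 12 h; 0.20%, 3.84% and 4.74% of all genes then passed at the 3 times, against 8.80%, 23.33% and 29.70%. With array weights it was 10 at 12 h, 17 at 24 h, 8 for the 24 h minus 12 h difference and 2 for 48 h minus 24 h, while 21.64% and 49.49% of all genes passed at 12 and 24 h. At an adjusted p under 0.01 it was 5 at 24 h, 7 at 48 h, 0, 0 and 1 for the differences (24 h minus 12 h, 48 h minus 24 h and 48 h minus 12 h; 5, 7 and 8 at an unadjusted p under 0.05) and 5 for vehicle at 48 h. Fitting the compared groups alone gave 6 at 48 h (13.02% of all genes), 0 for 48 h minus 24 h (4 unadjusted) and 2 for 48 h minus 12 h. No background correction and an offset of 50 each gave 2 for 48 h minus 24 h, and the background range as a block gave 2 for 24 h minus 12 h; that block could not be fitted for the vehicle comparisons. Leaving out 1 array at a time gave 3 to 4 members at 12 h, 5 to 8 at 24 h, 9 to 13 at 48 h, 0 to 1, 0 to 1 and 2 to 5 for the differences, 10 to 12 for vehicle at 24 h and 6 for vehicle at 48 h; 48 h minus 12 h fell to 2 without vehicle replicate 1 or 2 or pioglitazone replicate 3 of 12 h or vehicle replicate 1 of 48 h. In vehicle at 24 h against 12 h, CTSB turned to 0.14 and GUSB to 0.11 under median scaling, and CTSB to 0.16 and ARSA to 0.08 with the mean of the kept probes; the cause was not tested. With the mean of the kept probes 6 members rose and 4 fell at 48 h, in place of 5 and 7. With a replicate block 3, 8 and 11 members passed at 12, 24 and 48 h, and 1, 1 and 3 for the differences. The authors' processed values changed 1 of 256 member results, the probe-level fit, chosen after seeing the data, 5, and the detection filter (none, or 9 arrays) 1 each. A member near background, such as NBR1, is measured less well than the rest.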
